A study of Mus musculus with 10 samples.

Results

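Trimethylation of histone H3 lysine 27 (H3K27me3) was followed along the autosomes of the mouse embryonic stem (ES) cell line LF2, in embryoid bodies (EBs) after 10 days without LIF and in undifferentiated LF2 cells. The genome was divided into bins of 10 kb, and the midpoint of each deposited read interval was counted in its bin on chromosomes 1 to 19. Bins with 20 or more reads in both LF2 libraries together were kept, which gave 182696 bins out of 236636 with a read in either library (77.2%) and out of 237573 with a read in any of the 10 libraries of the study. The LF2 line has a 129/Ola background. LF2 EBs and undifferentiated LF2 cells were each profiled once, by chromatin immunoprecipitation and sequencing (ChIP-seq) with the H3K27me3 antiserum of T. Jenuwein.

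The study compared H3K4me3 and H3K27me3 before and after ES cell differentiation in 3 lines. E14, also 129/Ola, was profiled for H3K27me3 as 10-day EBs and undifferentiated. XT67E1, labelled C3H/Pgk*129, was profiled for H3K27me3 and H3K4me3 after treatment with all-trans retinoic acid (atRA) for 4 days, as 10-day EBs and undifferentiated. As background, E14 cells are male, and LF2 and XT67E1 cells are female. All undifferentiated cells were kept in serum with LIF on gelatin. EBs are aggregates in which ES cells, once LIF is withdrawn, form a mixture of cell types, and every library was made from bulk chromatin, so a mark gained in a few cells and a weaker gain in all cells cannot be told apart. No input library was used here, so copy number was not measured. No gene annotation of the mm9 build was used here, so regions are named by mm9 position, and the cell type of the cultures could not be checked against marker genes.

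H3K27me3 is placed by Polycomb repressive complex 2 and lies mainly on silent or weakly expressed chromatin. In ES cells it is densest over CpG islands of silenced developmental regulators, where H3K4me3, a mark of active promoters, is often present as well. During differentiation such bivalent promoters can lose one of the marks, and other promoters that become silent can acquire H3K27me3.

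Each LF2 library held 4531733 reads, of which 4309553 (95.1%) in EBs and 4363886 (96.3%) in undifferentiated cells were autosomal. E14 had the same number of reads per library, XT67E1 had 8380007 per H3K27me3 library and 2252395 per H3K4me3 library. Totals identical to the read in different libraries may not be the depth sequenced, and how they arose was not examined. With 1 library per group there is no replicate check. Except for the Wilson intervals of shares of bins, the intervals given are exact conditional binomial 95% intervals of the ratio of 2 counts. They cover counting error only.

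Across the kept bins, H3K27me3 in LF2 EBs was close to that in undifferentiated LF2 cells, with a long tail on both sides. Scaled to all autosomal reads, the median log2 ratio of EBs over undifferentiated cells was 0.05, the quartiles were -0.32 and 0.45, and the 1st and 99th percentiles were -1.26 and 1.52. A bin was called gained or lost in EBs when its ratio was 2-fold or more and its interval excluded 1. By this rule 7331 bins were gained (4.01%) and 4459 were lost (2.44%) out of 182696. The intervals were not adjusted over the bins, and the number of calls expected from counting error alone is not given here. A large part of both shares may therefore come from counting error. Gained bins had a median of 22 reads in EBs and 8 in undifferentiated cells. Lost bins had a median of 15 reads in EBs and 36 in undifferentiated cells. Over all kept bins the medians were 18 reads in EBs and 17 in undifferentiated cells. These are the counts that chose the bins. Low undifferentiated and high EB counts in gained bins, and the reverse in lost bins, therefore follow from the calls. Gained bins held 4.20% of the autosomal reads of EBs and 1.56% of those of undifferentiated cells, and lost bins held 1.89% of those of EBs and 4.60% of those of undifferentiated cells.

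The balance of gains and losses depended on the scaling. Scaled to the reads in 119781 bins of low coverage (1 to 29 reads in both LF2 libraries together), with 1253586 reads from EBs and 1081643 from undifferentiated cells, every ratio fell by 0.23 on the log2 scale and the median was -0.18. The rule then called 2993 bins gained (1.64%) and 10843 lost (5.93%). All 2993 gained bins were also gained under autosomal scaling, where they made up 40.8% of the gains, and all 4459 losses under autosomal scaling were also lost under low-coverage scaling. The 2993 gains and 4459 losses are called under both scalings. Ratios of 4-fold or more were reached in 307 gained and 47 lost bins under autosomal scaling. Under low-coverage scaling, where every ratio was 0.23 lower, fewer gained and more lost bins reached 4-fold. The excess of gains among such bins thus also depended on the scaling.

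**Figure D1:**
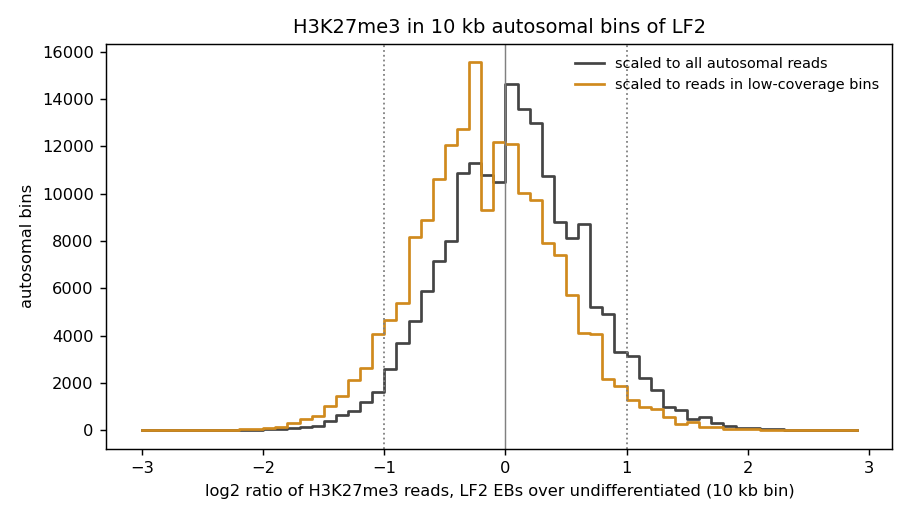
Number of autosomal 10 kb bins by log2 ratio of H3K27me3 reads, LF2 EBs over undifferentiated LF2 cells, scaled to all autosomal reads (dark) or to low-coverage bins (orange); dotted lines mark 2-fold. The orange curve is the dark one moved left by 0.23, with medians of -0.18 and 0.05, so more bins pass the left line and fewer the right one.

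The direction of calls went with the number of reads in a bin. Of the 65841 bins with 20 to 29 reads, 5.19% were gained and 0.954% lost. Of the 7614 bins with 100 or more reads, 33 were gained (0.433%) and 665 were lost (8.73%), and the median log2 ratio was -0.36. At the edge of the read minimum, the 6695 bins with exactly 20 reads had a median of 0.28, and the 6400 bins with 19 reads, just outside, had a median of 0.16. Of the 7331 gained bins, 3414 had 20 to 29 reads and 3208 had 30 to 49, so most of the gains rest on few reads.

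Ranking the bins by libraries of other lines, which do not enter the LF2 ratio, gave the same order. In the lowest 10% of bins by H3K27me3 in undifferentiated E14 cells, LF2 EBs had 8.09 reads per bin and undifferentiated LF2 cells 6.95, a pooled log2 ratio of 0.24 (0.23 to 0.25). The pooled ratio was 0.06 between the 50th and 75th percentiles and -0.33 between the 95th and 99th. Between the 99th percentile and the densest 0.1% LF2 EBs had 85.7 reads per bin against 112 in undifferentiated LF2 cells (-0.36). With this scaling the reads of LF2 EBs were thus spread more evenly, with fewer in the bins richest in H3K27me3 and more in the poorest. How strongly each immunoprecipitation enriched the mark was not measured. A change of the mark cannot be told apart from a difference in enrichment between the 2 libraries. The densest 0.1% of bins had 192 reads per bin in LF2 EBs and 220 in undifferentiated LF2 cells (-0.18, interval -0.20 to -0.16), or -0.23 (-0.25 to -0.21) without the single bin on chromosome 17 described below, so the ratio was less negative there than in the class beneath it. Ranked by undifferentiated XT67E1 instead, the pooled ratio was 0.28 in the lowest 10% of bins and -0.40 between the 99th percentile and the densest 0.1%. Under low-coverage scaling the same strata by E14 gave 0.01 in the lowest 10% and -0.60 between the 99th percentile and the densest 0.1%, and the richest bins had fewer reads in EBs with either scaling. Low-coverage scaling sets bins of few reads near 0 by its construction, so its value in the poorest bins carries no information of its own.

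**Figure D2:**
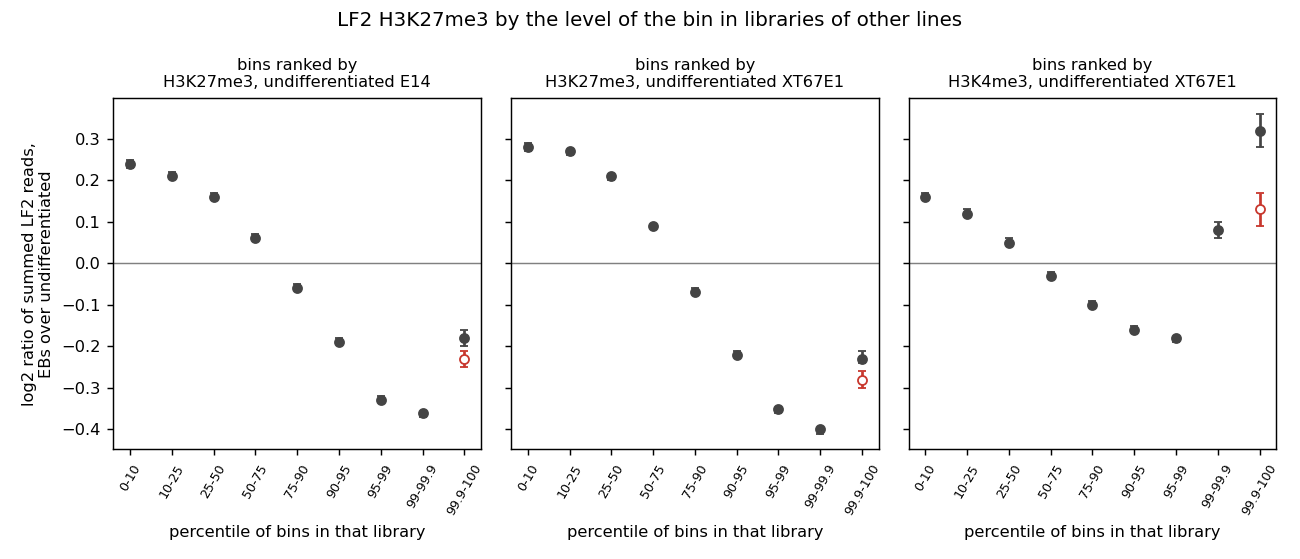
Log2 ratio of summed H3K27me3 reads, LF2 EBs over undifferentiated LF2 cells (autosomal scaling), for bins grouped by percentile of reads in undifferentiated E14 H3K27me3 (left), undifferentiated XT67E1 H3K27me3 (middle) and undifferentiated XT67E1 H3K4me3 (right); bars are 95% counting intervals, and open points leave out the dense bin on chromosome 17. The ratio goes down with the H3K27me3 level up to the densest 0.1% of bins, where it is less negative (-0.18 by E14 and -0.23 by XT67E1), and in the 0.1% of bins with most H3K4me3 it is 0.32 with that bin and 0.13 without it.

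By H3K4me3 of undifferentiated XT67E1 cells, LF2 bins followed another course at the top. The pooled LF2 ratio was 0.16 in the 10% of bins with least H3K4me3 and -0.18 between the 95th and 99th percentiles, and 0.32 (0.28 to 0.36) in the top 0.1%. In this top class LF2 EBs had 49.4 and undifferentiated LF2 cells 40.0 H3K27me3 reads per bin, and 19 of its 194 kept bins were gained (9.79%) and 2 lost (1.03%). One bin on chromosome 17, described below, held 2172 of the 11513 reads of LF2 EBs and 686 of the 9329 reads of undifferentiated LF2 cells in this class. Without it the pooled ratio was 0.13 (0.09 to 0.17), with 40.3 reads per bin in EBs and 37.3 in undifferentiated cells, and -0.10 under low-coverage scaling.

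Bins with both marks before differentiation were among those where LF2 losses were most frequent. A bin was counted as H3K4me3-marked with more than 20 reads in undifferentiated XT67E1, the top 5% of bins. Of the 2008 LF2 bins that were marked and in the top 5% by H3K27me3 of undifferentiated E14, 217 were lost in LF2 EBs (10.8%, against 2.44% of all kept bins) and 44 were gained (2.19%), with a pooled ratio of -0.28. These bins are rich in reads, and loss calls went with read number. Of all bins with 100 or more reads 8.73% were lost, and the classes were not matched for reads. Of the 8961 bins in the top 5% by H3K27me3 without H3K4me3, 649 were lost (7.24%) and 49 gained (0.547%), with a pooled ratio of -0.34. Where E14 had H3K27me3 up to its median of 16 reads, the pooled LF2 ratio was 0.10 in bins with H3K4me3 and 0.19 in bins without.

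The 12 autosomal bins with the highest LF2 ratios were taken among the 276 gained bins that had 50 or more reads and were called under both scalings. They had 43 to 102 reads in EBs and 7 to 17 in undifferentiated cells, with log2 ratios of 2.16 to 3.34. The highest was chr7:152040001-152050000, with 79 reads in LF2 EBs and 7 in undifferentiated LF2 cells, a log2 ratio of 3.34 (2.40 to 4.88). The bin next to it, chr7:152050001-152060000, had 48 reads in LF2 EBs and 8 in undifferentiated LF2 cells (2.46, interval 1.51 to 3.89). These neighbours form 1 region of 20 kb near the end of chromosome 7, and 63 of the EB reads and 4 of the undifferentiated reads of the first bin lay in its last 5 kb. XT67E1 had 84 reads in EBs and 15 in undifferentiated cells in the first bin (2.42), and E14 had 195 in EBs and 31 in undifferentiated cells (2.61). In XT67E1, H3K4me3 reads in this bin were 59 in EBs and 230 in undifferentiated cells, so the bin held both more H3K27me3 and less H3K4me3 in EBs.

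On chromosome 4, chr4:135800001-135810000 had 73 reads in LF2 EBs and 10 in undifferentiated LF2 cells (2.77, interval 1.93 to 4.01). It had 104 reads in EBs and 10 in undifferentiated cells of XT67E1 (3.27), and 136 in EBs and 28 in undifferentiated cells of E14 (2.24). This gain was large in each of the 3 lines. On the same chromosome, chr4:129050001-129060000 had 47 reads in LF2 EBs and 9 in undifferentiated LF2 cells (2.28, interval 1.36 to 3.62). E14 had 85 reads there in EBs and 9 in undifferentiated cells, its largest ratio among the 12 bins at 3.10.

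The bin chr8:74840001-74850000 had 48 reads in LF2 EBs and 7 in undifferentiated LF2 cells (2.63, interval 1.64 to 4.19). It was rich in H3K4me3 in XT67E1, with 162 reads in EBs and 346 in undifferentiated cells. Its LF2 reads were narrow: 40 of the EB reads and 5 of the undifferentiated reads lay in 5 kb, with up to 19 in 1 kb.

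The bin chr19:44790001-44800000 had the most reads of the 12, with 102 in LF2 EBs and 17 in undifferentiated LF2 cells (2.53, interval 1.85 to 3.44). Its right-hand neighbour had 76 reads in LF2 EBs and 86 in undifferentiated LF2 cells, so the gain ended at a stretch that carried the mark in both states. E14 had 158 reads in EBs and 94 in undifferentiated cells (0.74), the only one of the 12 bins not called gained in E14.

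The other gained bins were chr7:31250001-31260000 with 48 reads in LF2 EBs and 9 in undifferentiated LF2 cells (2.31), chr5:118880001-118890000 and chr18:36440001-36450000 with 51 in EBs and 10 in undifferentiated cells each (2.26), and chr11:12360001-12370000 with 44 in EBs and 9 in undifferentiated cells (2.19). The last of the 12 were chr5:132740001-132750000 and chr7:3300001-3310000, with 43 reads in LF2 EBs and 9 in undifferentiated LF2 cells each (2.16). On chr5:132740001-132750000, XT67E1 had 51 reads in EBs and 44 in undifferentiated cells (0.22), the only one of the 12 not called gained in XT67E1. It was also the only one with more H3K4me3 reads in XT67E1 EBs (9) than in undifferentiated cells (5).

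Of the 12 gained bins, 11 were called gained in XT67E1 (1.85% of bins kept in both lines were) and 11 in E14 (2.16%), and the ratio was above 0 in 12 of 12 in each line. With atRA, XT67E1 had more H3K27me3 reads than undifferentiated XT67E1 in 11 of the 12. In undifferentiated XT67E1 10 of the 12 were marked by H3K4me3 (5.44% of all kept bins were), and in 11 the H3K4me3 reads were fewer in EBs. Shares of all bins with more or fewer reads were not counted. From 50% to 86.4% of the EB reads of these bins lay in their densest 5 kb.

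The 12 bins with the lowest LF2 ratios were taken among 2343 lost bins with 50 or more reads. They had 8 to 23 reads in EBs and 42 to 142 in undifferentiated cells, with log2 ratios of -2.67 to -2.10. The lowest, chr2:11420001-11430000, had 12 reads in LF2 EBs and 83 in undifferentiated LF2 cells (-2.67, interval -3.78 to -1.89). In its densest 5 kb LF2 EBs had 5 reads and undifferentiated LF2 cells 65, while the 10 kb on its left had 21 in EBs and 14 in undifferentiated cells. The lower count lay in a peak a few kb wide, and the stretch on its left did not share it. E14 had 24 reads in EBs and 78 in undifferentiated cells (-1.66), and XT67E1 had 44 in EBs and 74 in undifferentiated cells (-0.72).

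The bin with most reads among the losses, chr6:41570001-41580000, had 23 reads in LF2 EBs and 142 in undifferentiated LF2 cells (-2.56, interval -3.31 to -1.97). XT67E1 had 31 reads in EBs and 36 in undifferentiated cells, and E14 had 24 in EBs and 23 in undifferentiated cells. The high level was thus seen in undifferentiated LF2 and in neither of the other lines. LF2 EBs had about the reads of E14, which had the same number of reads per library. The XT67E1 H3K4me3 libraries had 5 reads there in EBs and 5 in undifferentiated cells.

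Other lost bins also had lower counts in E14 EBs. On chr5:145110001-145120000 LF2 had 22 reads in EBs and 108 in undifferentiated cells (-2.23), and E14 had 23 in EBs and 60 in undifferentiated cells (-1.35). On chr8:35870001-35880000 LF2 had 22 reads in EBs and 100 in undifferentiated cells (-2.12), and E14 had 28 in EBs and 72 in undifferentiated cells (-1.33). In XT67E1 the H3K4me3 reads of this last bin were 120 in EBs and 37 in undifferentiated cells, opposite to its H3K27me3. The bin chr12:55300001-55310000, with 9 reads in LF2 EBs and 44 in undifferentiated LF2 cells (-2.15), was the only one of the 12 called lost in all 3 lines. XT67E1 had 27 H3K27me3 reads there in EBs and 81 in undifferentiated cells, and 72 H3K4me3 reads in EBs and 17 in undifferentiated cells.

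On some of the lost bins E14 did not follow LF2. On chr11:84770001-84780000 LF2 had 20 reads in EBs and 97 in undifferentiated cells (-2.20), and E14 had 59 in EBs and 47 in undifferentiated cells (0.32). On chr10:116590001-116600000 LF2 had 14 reads in EBs and 68 in undifferentiated cells (-2.18), and E14 had 22 in EBs and 17 in undifferentiated cells (0.35). On chr11:101000001-101010000 LF2 had 8 reads in EBs and 44 in undifferentiated cells (-2.30), and E14 had 20 in EBs and 18 in undifferentiated cells (0.14). The E14 ratio was above 0 in each of these bins, and its counting intervals included equal levels.

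The last of the 12 were lower in E14 EBs too. They were chr14:56510001-56520000 with 8 reads in LF2 EBs and 49 in undifferentiated LF2 cells (-2.46), chr1:181590001-181600000 with 8 in EBs and 42 in undifferentiated cells (-2.24), chr3:54610001-54620000 with 22 in EBs and 101 in undifferentiated cells (-2.13), and chr12:77640001-77650000 with 11 in EBs and 51 in undifferentiated cells (-2.10). Of these, chr3:54610001-54620000 was not called in E14, which had 35 reads in EBs and 55 in undifferentiated cells (-0.64). XT67E1 had 40 reads in EBs and 42 in undifferentiated cells on chr12:77640001-77650000, the smallest ratio of the 12 in that line (-0.06).

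Of the 12 lost bins, 7 were called lost in E14 (2.87% of bins kept in both lines were) and 1 in XT67E1 (0.721%). The ratio was below 0 in 12 of 12 in XT67E1, from -1.54 to -0.06, and in 8 of 12 in E14. With atRA, XT67E1 had fewer H3K27me3 reads than undifferentiated XT67E1 in 9 of the 12. In undifferentiated XT67E1 2 of the 12 were marked by H3K4me3 (5.44% of all kept bins and 11.7% of lost bins were), and in 10 the H3K4me3 reads were more in EBs. Shares of all bins with more or fewer reads under atRA or in H3K4me3 were not counted. The ratios of all 24 bins lie far beyond the 2-fold limit, and they were also called under scaling within each chromosome and with a pseudocount of 5 reads.

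**Figure D3:**
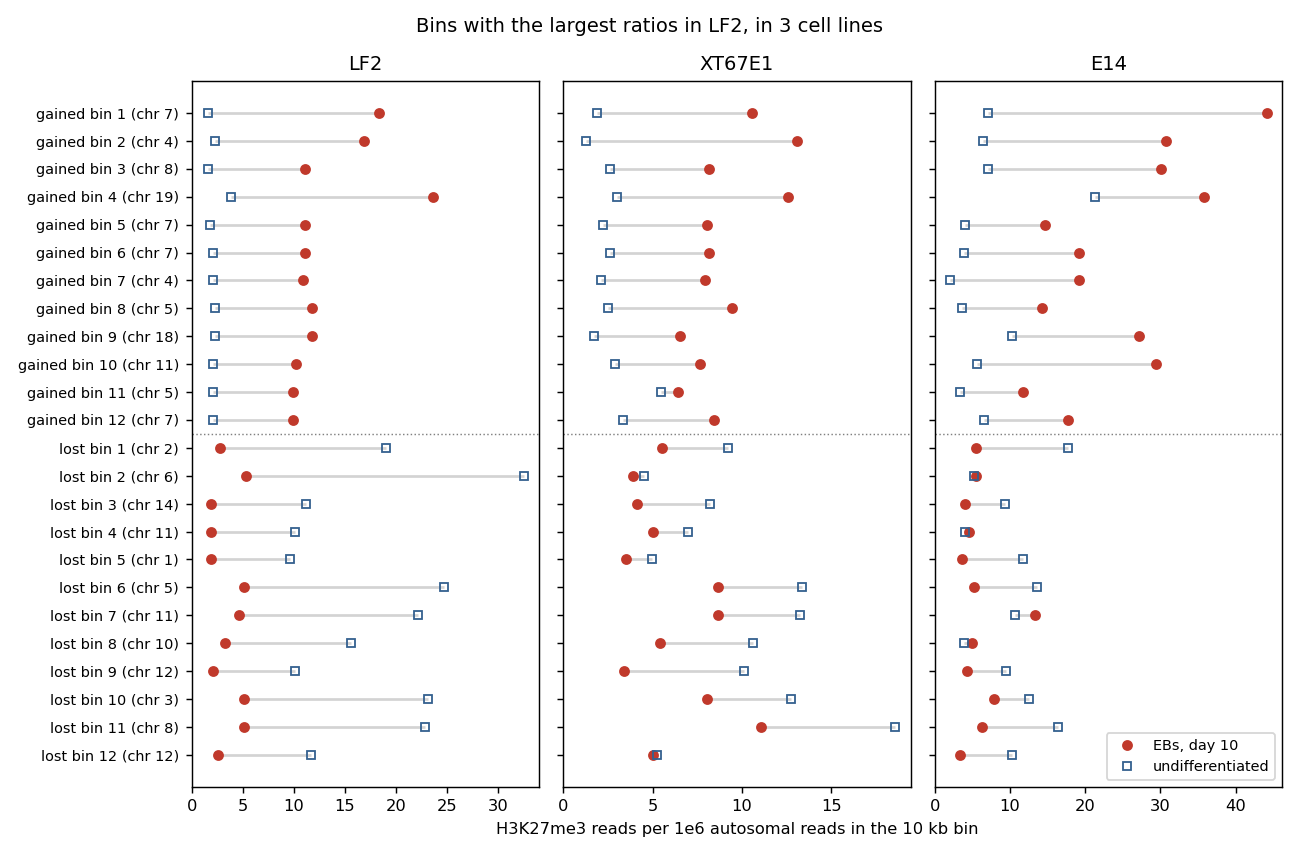
H3K27me3 reads per 1e6 autosomal reads (RPM) in the 12 bins with the highest and the 12 with the lowest LF2 ratios, in the order of the ratio, for EBs (filled) and undifferentiated cells (open) of LF2, XT67E1 and E14; the axes differ between lines. The gained bins are higher in EBs in all 3 lines, while several lost bins show a small or no difference in XT67E1 or E14, such as the lost bin on chromosome 6.

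**Figure D4:**
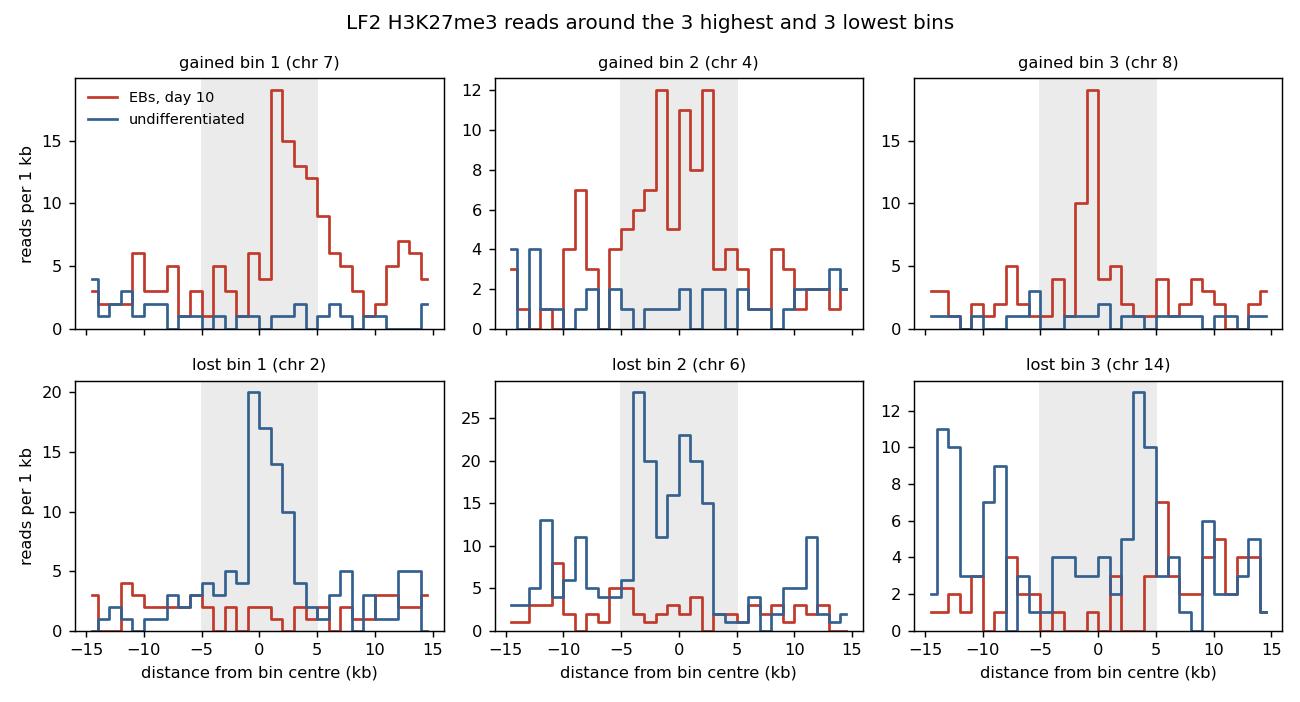
LF2 H3K27me3 reads per 1 kb around the centre of the 3 highest (top) and 3 lowest (bottom) bins, in EBs (red) and undifferentiated cells (blue); grey marks the 10 kb bin. In the gained bins the EB reads rise over a few kb, up to 19 per 1 kb in the first, above 0 to 2 reads per 1 kb of undifferentiated cells within the bin, and the lost bins show the opposite.

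Most called bins stood alone. The 7331 gained bins formed 6760 runs of adjacent bins, of which 469 had 2 or more bins, 72 had 3 or more and 14 had 4 or more. The 4459 lost bins formed 4036 runs, of which 351 had 2 or more bins, 54 had 3 or more and 14 had 4 or more. Adjacent kept bins that were not called gained had a median log2 ratio of 0.21 beside a gained bin, and those not called lost had -0.22 beside a lost bin, against 0.05 over all kept bins. These medians were not matched for read number, and bins of 20 to 29 reads had a median of 0.22 and bins of 50 to 99 reads one of -0.14 anywhere.

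Averaged over the 2993 bins gained under both scalings, the centre 1 kb held 0.613 RPM in LF2 EBs and 0.185 in undifferentiated LF2 cells. In XT67E1 the same 1 kb held 0.436 RPM in EBs and 0.368 in undifferentiated cells, and in E14 0.475 in EBs and 0.398 in undifferentiated cells. The LF2 values are those that chose the bins, and undifferentiated LF2 lay well below the other undifferentiated lines there. Across the left edge of these bins, LF2 EBs rose from 0.440 to 0.619 RPM per 1 kb. Undifferentiated LF2 cells fell from 0.323 to 0.194. The step was smaller in EBs of XT67E1 (0.409 to 0.436) and E14 (0.424 to 0.478). Bin edges were set without regard to the mark, so the LF2 step follows at least in part from choosing bins by these counts. How large that part is was not tested. Averaged over the 4459 lost bins, the centre 1 kb held 0.435 RPM in LF2 EBs and 1.07 in undifferentiated LF2 cells. XT67E1 had 0.637 in EBs and 0.740 in undifferentiated cells, and E14 had 0.566 in EBs and 0.693 in undifferentiated cells. In the other lines the direction was thus the same on average and the size much smaller.

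The longest gained run spanned 140 kb, chr8:91460001-91600000, with 14 gained bins, 524 reads in LF2 EBs and 191 in undifferentiated LF2 cells (1.47, interval 1.23 to 1.72). Of its 14 bins 7 were gained under low-coverage scaling too. XT67E1 had 753 reads in EBs and 481 in undifferentiated cells (0.66), and E14 had 395 in EBs and 271 in undifferentiated cells (0.54). H3K4me3 in XT67E1 was 393 reads in EBs and 808 in undifferentiated cells over the same 140 kb. The LF2 calls chose this run, and the other lines, which did not, had ratios above 0 with intervals of 0.49 to 0.83 in XT67E1 and 0.31 to 0.77 in E14.

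Some other long gained runs on chromosome 8 were not seen in E14. The run chr8:89380001-89440000 had 192 reads in LF2 EBs and 67 in undifferentiated LF2 cells (1.54), against 81 in EBs and 87 in undifferentiated cells of E14 (-0.11). The run chr8:88520001-88570000 had 158 reads in LF2 EBs and 46 in undifferentiated LF2 cells (1.80), against 67 in EBs and 72 in undifferentiated cells of E14 (-0.11). In chr8:86450001-86490000 LF2 had 142 reads in EBs and 60 in undifferentiated cells (1.26), and E14 had 62 in EBs and 76 in undifferentiated cells (-0.30). Of the 8 longest gained runs 6 lay on chromosome 8, which held 10862 of the 182696 kept bins. In these 6 runs XT67E1 gave 0.45 to 0.66. Under low-coverage scaling some of their bins were no longer called, with 5 of 6 gained in chr8:89380001-89440000, 4 of 5 in chr8:88520001-88570000, 1 of 4 in chr8:86450001-86490000 and 4 of 4 in chr8:87020001-87060000.

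The gained runs off chromosome 8 differed from each other. The run chr14:71010001-71050000 had 181 reads in LF2 EBs and 64 in undifferentiated LF2 cells (1.52, interval 1.10 to 1.95). It was as large in the other lines, with 264 reads in EBs and 79 in undifferentiated cells of XT67E1 (1.75) and 335 in EBs and 83 in undifferentiated cells of E14 (2.01). In XT67E1 its H3K4me3 reads were 85 in EBs and 226 in undifferentiated cells. The run chr2:27800001-27850000 had 144 reads in LF2 EBs and 56 in undifferentiated LF2 cells (1.38), with 0.34 in XT67E1 and 0.26 in E14. Under low-coverage scaling 2 of the 4 bins of the run on chromosome 14 and 3 of the 5 bins of the run on chromosome 2 were gained.

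The longest lost run spanned 60 kb, chr11:87490001-87550000, with 137 reads in LF2 EBs and 377 in undifferentiated LF2 cells (-1.44, interval -1.74 to -1.16). XT67E1 had 353 reads in EBs and 497 in undifferentiated cells (-0.48), and E14 had 120 in EBs and 253 in undifferentiated cells (-1.08). The run chr5:149790001-149840000 had 124 reads in LF2 EBs and 326 in undifferentiated LF2 cells (-1.38), with -0.24 in XT67E1 and -0.62 in E14. These 2 runs were lower in EBs of each line.

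Of the other 6 long lost runs, chr11:76140001-76180000 showed the widest gap between lines. LF2 had 130 reads there in EBs and 337 in undifferentiated cells (-1.36), E14 had 84 in EBs and 168 in undifferentiated cells, and XT67E1 had 341 in EBs and 314 in undifferentiated cells (0.13). On chr18:38330001-38370000 LF2 had 129 reads in EBs and 324 in undifferentiated cells (-1.31), and XT67E1 had 337 in EBs and 332 in undifferentiated cells (0.03). On chr12:85960001-86000000 LF2 had 124 reads in EBs and 311 in undifferentiated cells (-1.31), and it was E14 that did not follow, with 149 in EBs and 152 in undifferentiated cells (-0.03).

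Gains were unevenly spread over the chromosomes. Relative to all autosomal reads, the read density of LF2 EBs over undifferentiated LF2 cells was between 0.916 on chromosome 6 and 1.13 on chromosome 8, with 1.06 on chromosome 14. On chromosome 8, 847 bins were gained (7.80%) and 148 lost (1.36%). On chromosome 6, 249 bins were gained (2.14%) and 396 lost (3.41%). The excess on chromosome 8 came from its distal part. From 80 Mb on, a boundary set after the values were seen, the density ratio was 1.25 (1.24 to 1.26), with 660 bins gained (13.3%) and 13 lost (0.261%). Before 80 Mb it was 0.987, with 187 bins gained (3.18%) and 135 lost (2.29%).

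In EBs over undifferentiated cells the density ratio before 80 Mb of chromosome 8 was 0.976 in XT67E1 and 0.997 in E14. In the distal part it was 1.00 in XT67E1 and 1.04 (1.03 to 1.05) in E14, a smaller difference than in LF2 and in the same direction. Both LF2 libraries had more reads there than E14, and as a share of autosomal reads XT67E1 was above E14 too. Undifferentiated XT67E1 had 303552 of 8021002 autosomal reads there. Undifferentiated LF2 had 151580 of 4363886, and undifferentiated E14 had 110036 of 4411780. Distal LF2 density over E14 density was 1.67 in EBs and 1.39 in undifferentiated cells, against 1.11 in EBs and 1.12 in undifferentiated cells before 80 Mb. Copy number was not measured, and its part in these values was not tested. In the distal part the pooled LF2 ratio was 0.57 in bins with H3K27me3 up to the E14 median, 0.33 from there to the 95th percentile and -0.07 in the top 5%. The same classes elsewhere gave 0.18, -0.04 and -0.34. The distal bins were thus higher than the others in each class. Of the gained runs, 121 of the 469 with 2 or more bins lay on distal chromosome 8, as did 10 of the 14 with 4 or more, against 1 of the 351 lost runs of 2 or more bins. This distal part held 4973 of the 182696 kept bins.

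A stretch of chromosome 14, from 60 to 120 Mb, also set after the values were seen, showed a smaller difference of the same kind. Its density ratio was 1.09 in LF2, 0.942 in XT67E1 and 0.975 in E14, and 339 of its bins were gained (6.17%) and 62 lost (1.13%). LF2 density over E14 density was 1.46 in EBs and 1.30 in undifferentiated cells there, against 0.955 in EBs and 0.911 in undifferentiated cells before 60 Mb. In all other autosomal bins 6332 of 172230 were gained (3.68%) and 4384 lost (2.55%).

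In windows of 1 Mb, LF2 ratios had a median of 0.05, and 95% lay between -0.34 and 0.42. Their standard deviation over the 2387 windows was 0.20 in LF2, 0.14 in XT67E1 and 0.14 in E14. Of the 30 highest windows 17 lay on distal chromosome 8, which held 52 of the 2387 windows. Another 4 lay on chromosome 17 and 2 on chromosome 14, which held 6665 and 9309 of the 182696 kept bins. The 2 on chromosome 14 were thus near its share. Among windows of distal chromosome 8, 47 of 52 lay above the autosomal median, against 37 of 74 before 80 Mb. The window at 88 Mb of chromosome 8 had 2864 reads in LF2 EBs and 1796 in undifferentiated LF2 cells (0.69), with 0.18 in XT67E1 and -0.14 in E14. The window at 11 Mb of chromosome 17 had 2057 reads in LF2 EBs and 1296 in undifferentiated LF2 cells (0.68), with 0.13 in XT67E1 and 0.27 in E14.

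At the low end, the window at 172 Mb of chromosome 2 had 2951 reads in LF2 EBs and 4340 in undifferentiated LF2 cells (-0.54), with -0.14 in XT67E1 and 0.04 in E14. The window at 123 Mb of chromosome 5 had 2031 reads in LF2 EBs and 2926 in undifferentiated LF2 cells (-0.51), and the window at 34 Mb of chromosome 6 had 2082 in EBs and 2991 in undifferentiated cells (-0.50). The ratios of these low windows in the other lines were no lower than -0.17.

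**Figure D5:**
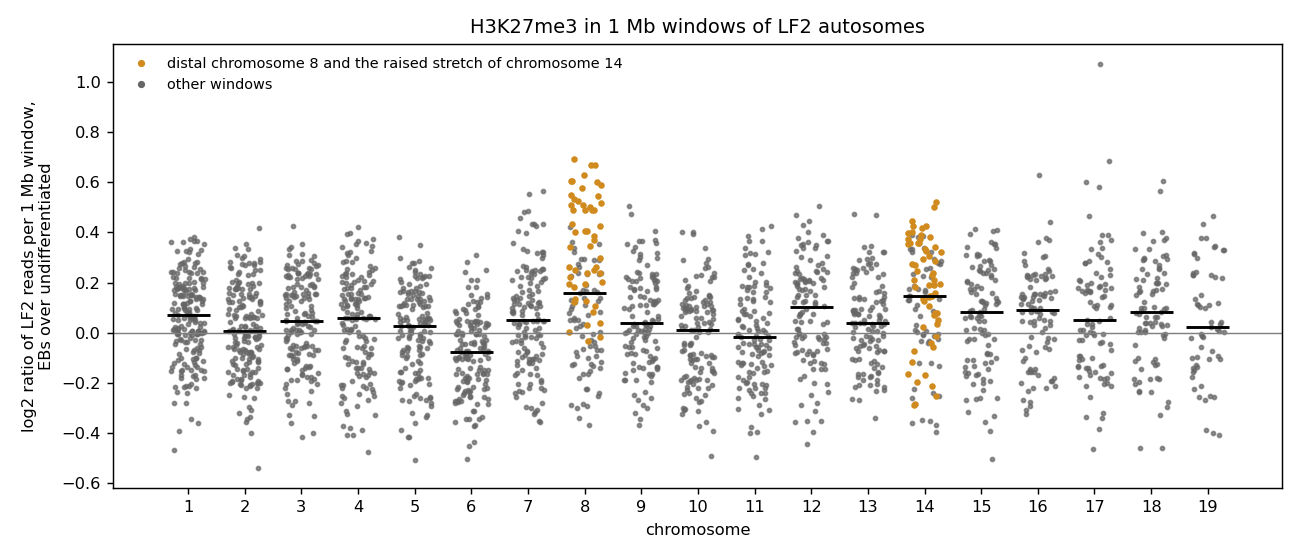
Log2 ratio of H3K27me3 reads per 1 Mb window, LF2 EBs over undifferentiated LF2 cells (autosomal scaling), by chromosome; each point is a window, bars are chromosome medians, and orange marks distal chromosome 8 and the raised stretch of chromosome 14. The orange windows of chromosome 8 reach 0.69, and the single point at 1.07 is the window of chromosome 17 that holds the dense bin.

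The highest window, at 39 Mb of chromosome 17, rested on 1 bin. It had 2982 reads in LF2 EBs and 1437 in undifferentiated LF2 cells (1.07), of which the bin chr17:39980001-39990000 held 2172 from EBs and 686 from undifferentiated cells (1.68, interval 1.56 to 1.81). Nearly all of these, 2168 in EBs and 680 in undifferentiated cells, lay in its first 6 kb. The rest of the window had 810 reads in EBs and 751 in undifferentiated cells (0.13). The same bin held 3381 reads in EBs and 1188 in undifferentiated cells of XT67E1 (1.52), and 2763 in EBs and 1436 in undifferentiated cells of E14 (0.94). Its H3K4me3 reads in XT67E1 were 651 in EBs and 694 in undifferentiated cells. This bin had the most reads of all autosomal bins in LF2 EBs and ranked 2 in undifferentiated LF2 cells. It was dense in every library and for both marks, so its counts may not reflect H3K27me3 alone. Whether its reads come from a single place in the genome was not tested. No interval occurs more than once within a file, so counts in so dense a stretch may be limited by the number of distinct positions.

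LF2 calls were found again in the other lines more often than over all bins, but for a small share of them. Of 7321 LF2 gained bins kept in XT67E1, 376 were also gained there (5.14%, Wilson 95% interval 4.65 to 5.67), against 1.85% of all bins kept in both lines. Of 6735 kept in E14, 307 were gained (4.56%, 4.09 to 5.08), against 2.16%. The Wilson intervals treat bins as independent, which neighbouring bins may not be, and do not cover the spread between cultures. These shared bins were 11.2% of the gains of XT67E1 and 8.22% of those of E14. Of 4458 lost bins kept in XT67E1, 74 were also lost there (1.66%, 1.32 to 2.08), against 0.721%. Of 4350 kept in E14, 388 were lost (8.92%, 8.11 to 9.80), against 2.87%. They were 5.62% of the losses of XT67E1 and 7.81% of those of E14. With low-coverage scaling in each line, 3.48% of LF2 gained bins were gained in XT67E1 (1.15% of all bins) and 6.55% in E14 (3.50%), and 3.10% of lost bins were lost in XT67E1 (1.43%) and 6.39% in E14 (1.83%). XT67E1 has a strain background of its own and had more reads per library, and neither was told apart from the line.

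Gained bins with more reads recurred more often. Of the LF2 bins gained under both scalings, 6.55% were also gained in XT67E1 (5.72 to 7.49) and 5.77% in E14 (4.96 to 6.70). Of those among them with 50 or more reads, 55 of 276 were also gained in XT67E1 (19.9%), against 1.04% of all bins with 50 or more LF2 reads. In E14 62 of 274 were (22.6%), against 3.14%. Of lost bins with 50 or more reads, 46 of 2343 were lost in XT67E1 (1.96%, 1.48 to 2.61, against 0.540%), and 280 of 2342 in E14 (12%, against 3.00%). Median log2 ratios over the 7331 gained bins were 0.14 in XT67E1 and 0.07 in E14, and over the 4459 lost bins -0.19 and -0.22.

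A bin was gained in each of the 3 lines in 82 cases out of 172676 bins kept in all (0.0475%), or 1.22% of the 6733 LF2 gains among them. The 82 bins were spread over 19 chromosomes, and 49 had 50 or more LF2 reads. On distal chromosome 8 lay 2 of them, near its share of the kept LF2 bins (4973 of 182696). Their median log2 ratios, which the calls put above 1, were 1.50 in LF2, 1.44 in XT67E1 and 1.54 in E14. Under atRA, a condition the calls did not use, their median H3K27me3 ratio over undifferentiated XT67E1 was 0.90, against -0.03 over all bins. The undifferentiated XT67E1 library serves both as the baseline of this ratio and in the XT67E1 EB call. In 13 bins the mark was lost in each line (0.299% of 4350 LF2 losses), with a median of -0.85 under atRA. A ratio at or below 0 in both other lines was seen in 1323 LF2 gains (19.6%), against 27.5% of all bins kept in 3 lines. A ratio at or above 0 in both was seen in 442 LF2 losses (10.2%), against 23.4%.

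H3K4me3 was profiled in XT67E1 and not in LF2, so it describes the same positions in another line. Of all kept LF2 bins 5.44% were H3K4me3-marked in undifferentiated XT67E1, against 5.54% of gained bins (406), 6.95% of bins gained under both scalings (208) and 11.7% of lost bins (522). Among the 82 bins gained in 3 lines, 61 were marked (74.4%). Recurrent gains thus lay largely on positions with H3K4me3, while LF2 gains as a whole had nearly the share of all kept bins.

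Relative to all marked bins, H3K4me3 moved the opposite way to LF2 H3K27me3 at marked gained positions. The undifferentiated XT67E1 H3K4me3 library both defines marked bins and is the baseline of their H3K4me3 ratio. Ratios below 0 and few higher calls therefore follow in part from the definition. The classes were not matched for H3K4me3 level. At marked bins gained in LF2 the median log2 ratio of H3K4me3, XT67E1 EBs over undifferentiated XT67E1, was -0.65, against -0.32 over all marked kept bins. By the 2-fold rule H3K4me3 was lower in 117 of these 406 bins (28.8%) and higher in 0, against 9.95% lower and 0.433% higher over all marked kept bins. At the 208 marked bins gained under both scalings the median was -0.77 and 80 were lower (38.5%). At the 61 marked bins gained in 3 lines the median was -1.09 and 34 were lower (55.7%). At the 522 marked bins lost in LF2 the median was -0.06, with 11 higher and 19 lower.

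Marked or not, bins with 20 or more H3K4me3 reads showed the same direction. Of 1773 such gained bins 127 were lower in H3K4me3 (7.16%, against 2.91% of 48922) and 32 higher (1.80%, against 2.66%). Of 2018 such lost bins 30 were lower (1.49%) and 125 higher (6.19%). The median H3K4me3 ratio was -0.11 in gained and 0.13 in lost bins, against 0.00 over all. The median differences were small beside the single bins named above, such as chr12:55300001-55310000 with 72 H3K4me3 reads in EBs and 17 in undifferentiated cells.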

How the data were processed

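Per the labels' protocols, chromatin was fixed with formaldehyde, sheared in a Bioruptor and sequenced on Illumina Genome Analyzers. The deposited files hold no measured value: each row is a chromosome, start and end of a 200 bp interval without strand, and intervals do not recur within a file. The build is mm9, per the submitters' processing notes. For the aligner, the read filters and the interval extension, nothing is stated in those sources.

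Midpoints were counted in 10 kb bins of chromosomes 1 to 19, with a minimum of 20 reads in the 2 libraries compared. Log2 ratios used counts plus 1 read, scaled to autosomal reads or to bins of 1 to 29 reads, and the added read understates the change of low bins. Calls needed 2-fold and an exact conditional binomial (Clopper-Pearson) 95% interval excluding 1. No test across bins was possible with 1 library per group. XT67E1 and E14 were processed in the same way. Named bins are the 12 highest and 12 lowest ratios among bins called under both scalings with 50 or more reads, named runs the 8 with most adjacent called bins each way, ties by reads, and named windows the 3 highest and 3 lowest. The members and rules were chosen with earlier results of these data known. The script was tested on simulated data. Alternatives were other scalings, read minimums, pseudocounts, bin sizes, fold and interval limits, and leaving out chromosome 8. Scaling within 5 Mb windows and leaving out stretches of chromosomes 8 and 14 were chosen after seeing the data, as was leaving out the dense bin of chromosome 17. Work was done in Python 3.11.15 with numpy 2.4.6, pandas 2.3.3 and scipy 1.17.1.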

Additional observations from a re-analysis of the deposited data

Results flagged for a closer look

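These differences between lines, LF2 minus the other line in log2 ratio of EBs over undifferentiated cells, have opposite signs in LF2 and in the other line, and the differences were not tested. In the window at 88 Mb of chromosome 8 the ratio was 0.69 in LF2 and -0.14 in E14, a difference of 0.83. The density of all of chromosome 8 was 0.18 in LF2 and -0.02 in XT67E1, a difference of 0.19. The density of chromosome 14 was 0.08 in LF2, -0.03 in XT67E1 and -0.04 in E14, with differences of 0.11 from XT67E1 and 0.12 from E14. From 60 to 120 Mb of chromosome 14 it was 0.12 in LF2, -0.09 in XT67E1 and -0.04 in E14, with differences of 0.21 and 0.16.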

How the results depend on the processing

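Low-coverage scaling gave 2993 gained and 10843 lost bins with a median log2 ratio of -0.18, and 121 gained and 1222 lost runs of 2 or more bins. Median scaling gave 6243 gained and 5496 lost bins (median 0.00), against 7331 gained and 4459 lost with autosomal scaling. A minimum of 50 reads left 709 gained and 2343 lost (median -0.18), and no minimum gave a median of 0.10. A pseudocount of 5 reads gave 4415 gained and 2476 lost. Bins of 5 kb gave 4894 gained and 8368 lost (median -0.08), so that losses outnumbered gains, and bins of 50 kb gave 382 gained and 81 lost (median 0.09). A 3-fold limit gave 1476 gained and 415 lost, and a stricter interval, leaving 0.1% outside, 608 gained and 1534 lost. With low-coverage scaling in each line, the share of LF2 gained bins also gained was 3.48% in XT67E1 and 6.55% in E14, and that of lost bins also lost was 3.10% in XT67E1 and 6.39% in E14. The cause of these changes was not tested. Scaling within 5 Mb windows gave 6313 gained and 4044 lost bins, of which 5284 and 3296 were the same bins as with autosomal scaling, and the gained share on distal chromosome 8 was then 4.04%, against 3.44% elsewhere. The 24 named bins, chosen as extreme and called under both scalings, stayed called under the other settings run on them. No paired analysis was possible because the LF2 groups compared hold 1 library each. EBs and undifferentiated cells could be paired over the 3 lines, which would test a change shared by the lines and not LF2 alone, and this was not done here. With 1 library a side, the number of reads limits calls in bins of few reads, and no interval covers the spread between cultures.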
